A study of Homo sapiens with 18 samples.

Results

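The 5 genes described here are CYP1A1, CYP1A2, CYP1B1, AHRR and TIPARP, classical targets of the aryl hydrocarbon receptor. They were chosen by gene symbol among the 3647 genes that the 3 deposited tables hold together. That each of the 5 is listed in some table thus follows from this choice. Of the 5 genes, 3 were listed after the combined treatment, 4 after ezetimibe and 1 after fenofibrate. Of all genes tested (numbers inferred from the p-values), 17.6%, 3.47% and 0.835% were listed after these treatments. Because of that choice the counts of members are no test against these shares. The study sequenced RNA of the human breast cancer line Cal51 in 18 libraries. Used here are 12 of them, 3 for each group treated for 8 h: fenofibrate plus ezetimibe (called the combination), ezetimibe (which lowers cholesterol by blocking NPC1L1), fenofibrate (a fibrate whose receptor is PPARα) and DMSO, the solvent control. All 4 groups are the same cell line, with no genetic change named in the labels, which give no dose either, and 6 further libraries, from PKM2 knockout cells and their controls, were not analysed here.

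The aryl hydrocarbon receptor is a transcription factor of the basic helix-loop-helix and PAS family that waits in the cytosol with HSP90 chaperones. When it binds a ligand, such as a planar aromatic compound or a tryptophan breakdown product, it moves to the nucleus, pairs with ARNT and binds DNA at xenobiotic response elements with the core letters GCGTG. Its targets include cytochromes of the CYP1 family, which oxidise many such ligands, and the feedback inhibitors AHRR and TIPARP. In breast cells CYP1A1 is the usual readout of the receptor and CYP1B1 hydroxylates oestradiol.

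The stretches before the start sites of the 4 members that were listed after ezetimibe are shown because these genes were higher together in the same libraries. The sequences are from a RefSeq promoter table on GRCh38.p14, in which 4 of the 5 members were matched by symbol; CYP1B1 is not shown. Each holds the 250 bases before the start site, 5′ to 3′ on the strand of the gene, with the response element core GCGTG, or CACGC where it lies on the other strand, in capitals.
CYP1A1 (chr15:74725529-74725778, minus strand): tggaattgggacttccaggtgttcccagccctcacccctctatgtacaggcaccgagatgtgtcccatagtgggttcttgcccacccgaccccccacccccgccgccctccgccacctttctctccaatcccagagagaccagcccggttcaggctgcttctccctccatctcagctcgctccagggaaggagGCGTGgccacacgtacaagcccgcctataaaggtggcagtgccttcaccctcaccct
CYP1A2 (chr15:74748595-74748844, plus strand): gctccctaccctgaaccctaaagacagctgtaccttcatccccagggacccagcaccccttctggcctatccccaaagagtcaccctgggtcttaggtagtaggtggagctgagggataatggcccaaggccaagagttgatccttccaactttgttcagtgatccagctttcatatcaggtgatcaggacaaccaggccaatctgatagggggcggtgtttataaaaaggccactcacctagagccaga
AHRR (chr5:321464-321713, plus strand, first of 2 start sites): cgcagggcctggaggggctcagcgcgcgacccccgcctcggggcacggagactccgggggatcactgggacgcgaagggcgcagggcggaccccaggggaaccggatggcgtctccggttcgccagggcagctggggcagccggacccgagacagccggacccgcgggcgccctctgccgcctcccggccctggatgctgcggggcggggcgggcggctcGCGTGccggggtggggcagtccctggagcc
TIPARP (chr3:156674340-156674589, plus strand, first of 3 start sites): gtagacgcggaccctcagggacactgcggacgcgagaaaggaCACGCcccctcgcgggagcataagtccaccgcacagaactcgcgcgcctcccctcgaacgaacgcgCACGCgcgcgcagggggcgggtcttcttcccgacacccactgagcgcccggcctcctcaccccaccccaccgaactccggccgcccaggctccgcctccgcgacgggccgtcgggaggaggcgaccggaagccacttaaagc
The core was found 57 bases before the start of CYP1A1 and 30 bases before that of AHRR, both as GCGTG. In TIPARP it was found as CACGC 208 and 142 bases before the start. The window of CYP1A2 did not hold these letters, and neither did those of the other 2 start sites of TIPARP, while that of the second start site of AHRR held GCGTG at 247 and 42 bases before the start. The core occurred on either strand in 32.2% of all 35116 RefSeq windows of this length. The longer form TNGCGTG, found in 4.52% of the windows, was present in the first AHRR window only. The start sites used here are those of RefSeq. As counted in the deposited data, AHRR begins earlier, at 304176, as do TIPARP, at 156673235, and CYP1A1, at 74725610 on the minus strand. The AHRR and TIPARP windows shown, and the core of CYP1A1, thus lie inside the genes as counted. These matches describe the letters of the windows only. Bases outside the windows were not searched, and binding of the receptor was not measured.

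Values are normalised read counts, that is, reads divided by a factor for each library that the authors set, and a member's spread is given as mean ± SD over 3 libraries. Each table holds only genes that passed against DMSO, and all of them had an absolute log2 change over 1 and an adjusted p under 0.05 by the authors' test. A member outside a table may have moved by less, not at all or gone untested, and is called not listed. Because the genes of a table were picked on these libraries, the limma p-values against DMSO are not independent evidence. Tests between treatments and of the interaction use only genes listed in every table involved. They too run on genes picked on these libraries. In bulk RNA fewer cells that express a gene and less RNA per cell cannot be told apart. The full depth of the libraries is not known. Reads summed over listed genes were 2550718 to 3265200 per library for the combination table, 185127 to 339263 for the ezetimibe table and 40113 to 108822 for the fenofibrate table. These sums differ with the genes listed and do not compare depth. The same library, DMSO replicate 1, had 3113261, 201859 and 44286 reads in these tables. Of 9 breast epithelial markers, GATA3 was listed as higher (log2 2.05) and ERBB2 as lower (-1.27) after the combination in the authors' deposited table, GATA3 also as higher after ezetimibe (1.08), and the other 7 have no value here. Of the markers of other cell types, COL1A1, PDGFRB (2 of 3 fibroblast markers) and APOA1 (1 of 3 for hepatocytes) were listed as lower after the combination and CDH5 (1 of 3 endothelial) as lower after ezetimibe, with 0 of 4 mesenchymal and 0 of 3 immune markers listed; their part in the results was not tested.

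CYP1A1, the cytochrome that oxidises polycyclic aromatic compounds, was the member with the largest change and was higher after all 3 treatments. It was 17.9-fold higher after the combination, 9.56-fold after ezetimibe and 3.95-fold after fenofibrate, each against the same DMSO libraries. The gene (ENSG00000140465) lies on the minus strand of chromosome 15, 74719542 to 74725610 on hg38. It had 2880, 2531 and 2511 normalised reads in the combination libraries, against 149, 145 and 147 in the DMSO libraries of that table. The ezetimibe libraries had 1398, 1461 and 1376, against 149.9, 146 and 147 in DMSO. The fenofibrate libraries had 563, 581 and 556, against 146, 141 and 144 in DMSO. No treated library came near a DMSO library: the lowest combination, ezetimibe and fenofibrate values were 16.8, 9.18 and 3.81 times the highest DMSO value.

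The log2 changes of CYP1A1 by limma were 4.15 ± 0.11 for the combination (SE, adjusted p = 2.83e-09), 3.25 ± 0.09 for ezetimibe (adjusted p = 2.77e-11) and 1.97 ± 0.10 for fenofibrate (adjusted p = 3.25e-07). By the fold change in the authors' deposited tables CYP1A1 took place 264 among the 2058 genes higher after the combination, place 13 among the 367 higher after ezetimibe and place 9 among the 93 higher after fenofibrate. Among listed genes with a mean of at least 50 these places were 42 of 1128, 6 of 217 and 9 of 87. DMSO libraries held 153, 158 and 138 reads of CYP1A1. Their normalised values varied by 1.49%, less than the 8.17% that counting error alone gives at this depth, so the SD of the DMSO group understates its uncertainty.

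**Figure D1:**
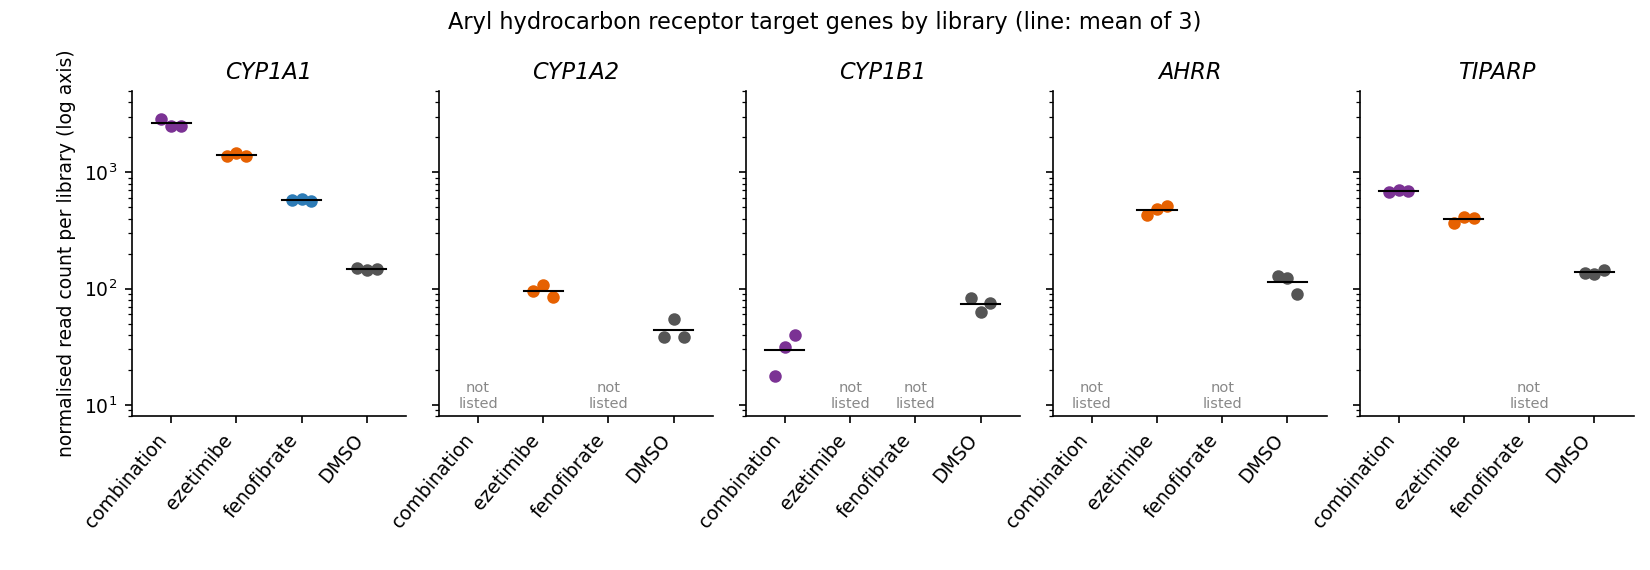
Normalised read counts of the 5 members in each library (log axis, put on the scale of the combination table), with combination, ezetimibe, fenofibrate and DMSO from left to right, 3 libraries a group and a line at the mean. CYP1A1 falls into 4 separate levels, TIPARP into 3, and the combination libraries of CYP1B1 (17.5 to 40.2) lie below its DMSO libraries (62.4 to 83.0).

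The next question was how the combination stood against each drug alone. For this the tables were put on the scale of the combination table through their shared DMSO libraries, which multiplied the ezetimibe values by 0.997 and the fenofibrate values by 1.03. On this scale CYP1A1 averaged 2641 ± 208 after the combination, 1408 ± 44.1 after ezetimibe, 581 ± 13.4 after fenofibrate and 147 ± 2.20 in DMSO (SD, n = 3 each). The 4 groups did not overlap, and every neighbouring pair in this order differed beyond its spread. The combination was 1.88-fold above ezetimibe (log2 0.90 ± 0.10, limma over the 359 genes of both tables, adjusted p = 3.73e-06) and 4.54-fold above fenofibrate (log2 2.18 ± 0.09, limma over 65 genes, adjusted p = 5.06e-09). Ezetimibe was 2.42-fold above fenofibrate (log2 1.27 ± 0.07, limma over 60 genes, adjusted p = 7.29e-08), and the lowest combination library was 1.72 times the highest ezetimibe library. Among the genes shared by a pair of tables, limma called 53.2% higher after the combination than after ezetimibe, 69.2% higher than after fenofibrate and 43.3% higher after ezetimibe than after fenofibrate, so a call in this direction was common. By log2 difference, from high to low, CYP1A1 took place 131 of 359 for the combination against ezetimibe, 10 of 65 for the combination against fenofibrate and 4 of 60 for ezetimibe against fenofibrate.

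Whether the effects of the drugs on CYP1A1 added up depended on the scale. On the log2 scale the combination was lower than the sum of the single-drug changes, by an interaction of -1.07 ± 0.10 (SE, 95% interval -1.29 to -0.85, limma over the 49 genes of all 3 tables, adjusted p = 3.44e-06). Of these 49 genes 55.1% were called lower by this test and their median was -0.60. All 49 had been picked for an absolute log2 change over 1 in each table, so the p-value is not free of that choice. If the single-drug folds had multiplied, the level would have been 5559, against 2641 measured. On the linear scale the order turned round. The DMSO level plus the sum of both single-drug changes was 1842 ± 26.6 (SE), and the measured combination mean was 798 ± 123 (SE) above it, with the lowest library at 2511. The linear comparison was chosen after the values were seen and carries no test.

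**Figure D2:**
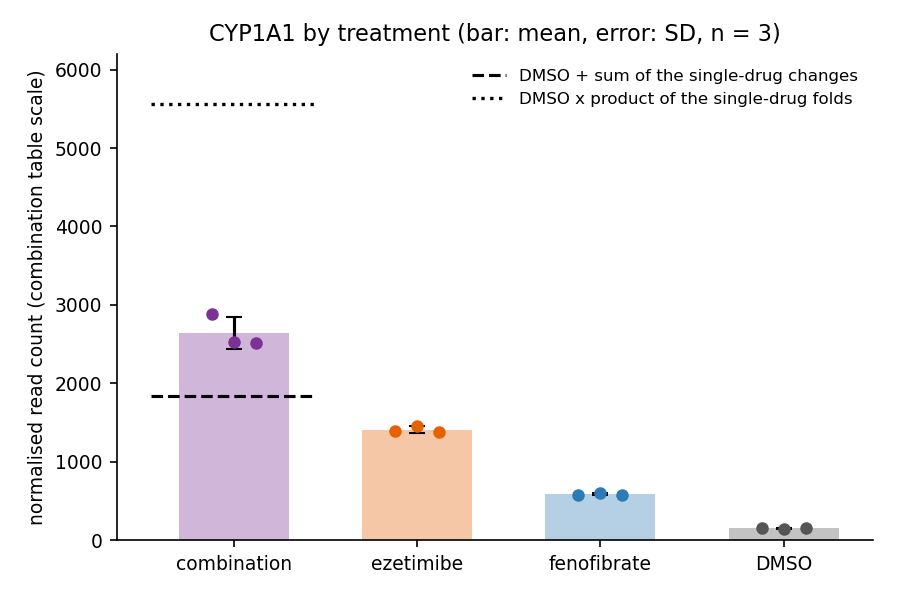
CYP1A1 by treatment as normalised read counts on the scale of the combination table, with bars for the mean of 3 libraries, error bars for the SD and points for libraries. The combination bar at 2641 stands above the dashed line (1842, DMSO plus the sum of the single-drug changes) and below the dotted line (5559, DMSO times the product of the single-drug folds).

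TIPARP, an enzyme of the PARP family that modifies the receptor and dampens it, was higher after the combination and after ezetimibe. The gene (ENSG00000163659, chromosome 3, 156673235 to 156706770, plus strand) had 676, 708 and 688 normalised reads in the combination libraries, against 137, 133 and 144 in DMSO. The ezetimibe libraries had 368, 413 and 406, against 137, 134 and 144 in DMSO. All combination libraries lay above all ezetimibe libraries, and these above all DMSO libraries. Against DMSO it was 5.00-fold higher after the combination (log2 2.32 ± 0.12, limma adjusted p = 9.27e-08) and 2.86-fold higher after ezetimibe (log2 1.51 ± 0.12, limma adjusted p = 1.32e-07). The combination stood 1.75-fold above ezetimibe (log2 0.81 ± 0.12, limma adjusted p = 3.96e-05). CYP1A1 and TIPARP were the members that could be tested between these treatments, since a test needs listing in both tables, and 53.2% of the shared genes were called in the same direction. AHRR and CYP1A2, listed after ezetimibe and not after the combination, are left out of this comparison by that need. TIPARP shares 37 of its 5048 exon bases with TIPARP-AS1 on the opposite strand. TIPARP was not listed after fenofibrate, so the interaction of the drugs could not be tested for it. The fenofibrate table lists 19 genes with a DMSO level within 1.5-fold of that of TIPARP, down to a log2 fold change of 1.01 among those higher.

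AHRR, which competes with the receptor for ARNT and represses its targets, was higher after ezetimibe and listed in no other table. The gene (ENSG00000063438, chromosome 5, 304176 to 438291, plus strand) had 429, 482 and 514 normalised reads in the ezetimibe libraries, against 128, 124 and 89.8 in the DMSO libraries. The lowest ezetimibe library was 3.34 times the highest DMSO library, and DMSO replicate 3 was the lowest of the 6. AHRR was 4.16-fold higher (log2 2.06 ± 0.15, limma adjusted p = 9.65e-08), where TIPARP had a log2 change of 1.51 in the same libraries. It was not listed after the combination, whose table holds 385 genes with a DMSO level within 1.5-fold of that of AHRR. Of these, 231 were higher, down to a log2 fold change of 1. After the combination AHRR may have moved by less, not at all or gone untested. The level of AHRR in the combination libraries is therefore not known, and no test of the combination against ezetimibe was possible. AHRR shares 244 of its 7678 exon bases with PDCD6 on the same strand, a gene listed in none of the tables.

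CYP1A2, a cytochrome known mainly from liver that metabolises caffeine, was likewise higher after ezetimibe and listed in no other table. The gene (ENSG00000140505, chromosome 15, 74748844 to 74756202, plus strand) is the neighbour of CYP1A1, with 23233 bases between them. Its ezetimibe libraries had 95.9, 108 and 84.6 normalised reads, against 38.2, 55.3 and 38.5 in DMSO. The groups did not overlap, with the lowest ezetimibe library at 1.53 times the highest DMSO library, which was DMSO replicate 2. CYP1A2 was 2.19-fold higher (log2 1.13 ± 0.21, limma adjusted p = 0.000251). It rested, by reads recovered from the values, on 89 to 105 reads per ezetimibe library and 36 to 60 reads per DMSO library. Transcripts of CYP1A1 and CYP1A2 shared 0 words of 50 bases among 3704 and 2679, so a read that matches exactly over 50 bases fits only 1 of these genes.

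With 4 of 5 members listed as higher and 0 as lower, ezetimibe had the most members listed. Of an inferred 13596 genes the authors listed 2.70% as higher and 0.772% as lower. Limma called the same 4 genes, and it called 366 of the 367 genes listed as higher (77.5% of the 472 listed genes). All 4 had no overlap between ezetimibe and DMSO libraries, as had 360 of the 367 genes listed as higher (76.3% of all 472 listed genes). Fenofibrate had 1 of 5 members higher and 0 lower, against 0.761% listed as higher and 0.0737% as lower of an inferred 12215 genes, a number that is the least certain of the 3. Limma called all 93 genes listed as higher (91.2% of the 102 genes of that table), and 92 of the 93, 90.2% of all 102, had no overlap with DMSO. Libraries of each treatment share the DMSO controls, so these counts are not independent of each other. The members were also chosen among listed genes, so the shares of all genes are no test of these counts.

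CYP1B1, which oxidises oestradiol and polycyclic aromatic compounds, went the other way from CYP1A1 after the combination. The gene (ENSG00000138061, chromosome 2, 38066973 to 38109902, minus strand) had 17.5, 31.5 and 40.2 normalised reads in the combination libraries, against 83.0, 62.4 and 74.7 in DMSO. The groups did not overlap, and combination replicate 1 was well under the other 2. Its mean was 0.405 of that in DMSO (log2 -1.34 ± 0.32, limma adjusted p = 0.00201), with 16 to 42 reads per combination library and 68 to 85 per DMSO library. The combination values varied by 38.5%, against 18.1% from counting error alone. Without combination replicate 1 the log2 change was -1.01 and without combination replicate 3 it was -1.59, and both stayed past the threshold. CYP1B1 shares 678 of its 6014 exon bases with the antisense gene CYP1B1-AS1 and 96 with RMDN2, both on the opposite strand, and 69 with RMDN2-AS1 on its own strand. The sources used here do not say whether reads were counted by strand, so reads of these genes in the shared bases cannot be told apart. None of these partners was listed.

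The combination thus had 2 of 5 members listed as higher, CYP1A1 and TIPARP, and 1 as lower, CYP1B1. Of an inferred 19944 genes its table listed 10.3% as higher and 7.27% as lower. Limma called 58.7% of the 3508 listed genes higher and 41.3% lower, that is, all of them, so these shares are the split of the table by direction. The 3 members had no overlap with DMSO, which was usual for listed genes: 2033 of the 2058 higher and 1440 of the 1450 lower genes had none (58.0% and 41.0% of all 3508 listed genes). CYP1B1 was not listed after ezetimibe or fenofibrate. The ezetimibe table holds 74 genes with a DMSO level within 1.5-fold of that of CYP1B1, 57 of them higher and 17 lower.

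**Figure D3:**
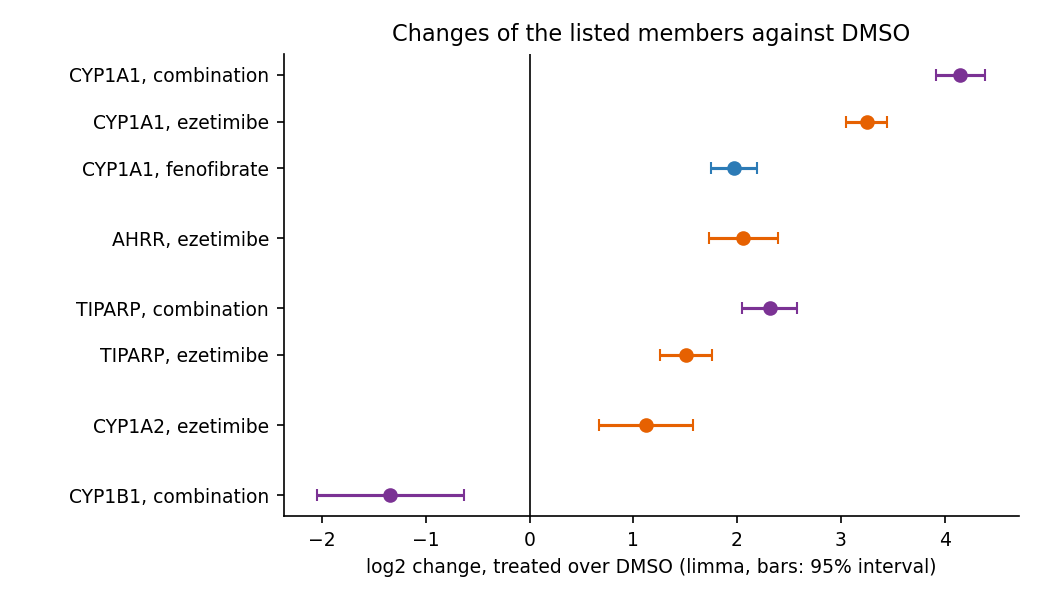
Log2 changes of the members against DMSO in the tables that list them, by limma on log2 of the value plus 1, with 95% intervals. CYP1A1 runs from 1.97 with fenofibrate to 4.15 with the combination, the interval of CYP1A2 with ezetimibe spans 0.67 to 1.58 and that of CYP1B1 with the combination -2.05 to -0.63.

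Levels can be set side by side between genes only per length. Per kilobase of gene length the DMSO levels on the scale of the combination table were 42.9 ± 0.64 for CYP1A1, 27.3 ± 1.11 for TIPARP, 16.1 ± 3.56 for CYP1A2, 14.8 ± 2.74 for AHRR and 12.2 ± 1.72 for CYP1B1 (normalised reads, SD). CYP1A2, AHRR and CYP1B1, the last 3 in this order, were within their spread of the next one in the order, while CYP1A2 lay below TIPARP by more than the spread. After ezetimibe the levels per kilobase on that scale were 409.9 ± 12.8 for CYP1A1, 78.1 ± 4.74 for TIPARP, 61.7 ± 5.58 for AHRR and 35.2 ± 4.35 for CYP1A2. After the combination CYP1A1 was at 769 ± 60.5, TIPARP at 137 ± 3.18 and CYP1B1 at 4.95 ± 1.90. CYP1A1 was thus the most abundant member per length in each group in which it was measured with others.

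The lists that follow are read against the shares of all genes listed after the combination (10.3% higher and 7.27% lower), ezetimibe (2.70% and 0.772%) and fenofibrate (0.761% and 0.0737%). With so few genes in a list, nothing particular to a list is drawn from these counts, and medians are over its listed genes only. Of 17 genes for the receptor, its partners, chaperones and coactivators, 1 was listed as higher and 1 as lower after the combination, and 0 after ezetimibe or fenofibrate. HSP90AA1, the chaperone that holds the receptor, had 14289.5 ± 451 normalised reads after the combination, against 46981 ± 3063 in DMSO (log2 -1.72 in the authors' deposited table). KLF6, a zinc finger factor reported as a partner of the receptor, had 2195 ± 301 after the combination, against 1091 ± 31.7 in DMSO (log2 1.01 in the authors' deposited table). AHR and ARNT themselves were not listed in any table. The median log2 fold change over all genes of the authors' deposited tables was 1.17 for the combination, 1.20 for ezetimibe and 1.20 for fenofibrate.

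Of 25 other genes known to respond to the receptor in some cells, 3 were listed as higher and 2 as lower after the combination, with a median log2 fold change of 2.41. After ezetimibe 1 was higher and 0 were lower, and after fenofibrate 0 were listed. EREG, a ligand of the epidermal growth factor receptor, had 331 ± 107 normalised reads after the combination, against 12.6 ± 3.36 in DMSO. In the ezetimibe table it had 79.5 ± 18.7, against 12.7 ± 3.38 in DMSO. IL1B, an inflammatory cytokine, had 33.7 ± 6.63 after the combination and 6.16 ± 5.75 in DMSO. The cytochrome CYP2S1 had 28.4 ± 7.91 after the combination and 5.40 ± 3.66 in DMSO. VAV3, a guanine nucleotide exchange factor, had 23.3 ± 1.57 after the combination, against 110.5 ± 20.1 in DMSO. SCIN, the fifth, was the other lower gene. NQO1, ALDH3A1, UGT1A1 and UGT1A6, detoxifying enzymes often grouped with CYP1A1, were not listed in any table.

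Some breakdown products of tryptophan are natural ligands of the receptor. Of 14 genes for enzymes of tryptophan and kynurenine, which include WARS although it does not break tryptophan down, 2 were listed as higher and 2 as lower after the combination (median log2 0.01), 2 as higher and 0 as lower after ezetimibe (median 1.82) and 0 after fenofibrate. WARS, the tryptophan tRNA ligase, had 9729 ± 1013 normalised reads after the combination against 2558 ± 77.8 in DMSO, and 7286 ± 169 after ezetimibe against 2565 ± 76.3 in DMSO. TDO2, which opens the tryptophan ring, was low throughout, with 22.4 ± 7.34 after the combination against 7.52 ± 0.71 in DMSO, and 33.1 ± 6.37 after ezetimibe against 7.54 ± 0.72 in DMSO. KYAT1, a kynurenine aminotransferase, had 36.6 ± 10.2 after the combination, against 108 ± 20.5 in DMSO. IDO1, a second ring-opening enzyme, had 2 reads over the 3 combination libraries and 30 over the 3 DMSO libraries.

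Among 25 other xenobiotic enzymes, exporters and their receptors, 2 were listed as higher after the combination (median log2 2.71), 2 after ezetimibe (median 1.47) and 1 after fenofibrate (1.23), and 0 were lower. CYP4F11, an omega-hydroxylase of fatty acids and drugs, had 895.5 ± 13.8 normalised reads after the combination against 125 ± 11.8 in DMSO, and 284 ± 14.1 after ezetimibe against 125 ± 11.8 in DMSO. The exporter ABCC3 had 255 ± 30.8 after the combination against 42.6 ± 7.53 in DMSO, 145 ± 15.4 after ezetimibe against 42.7 ± 7.59 in DMSO and 97.5 ± 8.78 after fenofibrate against 41.5 ± 7.26 in DMSO. Neither CYP3A4 nor CYP2B6, the usual readouts of the xenobiotic receptors PXR and CAR, was listed in any table.

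The families of AHRR and TIPARP were read against the same shares. Of the 22 genes of the bHLH-PAS family 3 were higher and 2 lower after the combination, 2 higher and 0 lower after ezetimibe and 1 higher and 0 lower after fenofibrate. EPAS1, a hypoxia-inducible factor, was higher in all 3 tables, with 930 ± 128 normalised reads after the combination against 35.7 ± 18.4 in DMSO. NPAS3, a neuronal factor, had 96.5 ± 14.8 after the combination, against 409 ± 38.3 in DMSO. NPAS4, a factor induced by neuronal activity, had 0 reads over the combination libraries and 16 over the DMSO libraries. Of 17 genes of the PARP family 3 were higher and 0 lower after the combination, 1 was higher after ezetimibe and 0 after fenofibrate. Beside TIPARP these were PARP11 (179 ± 71.9 after the combination and 80.5 ± 5.31 in DMSO) and PARP12 (406 ± 24.3 after the combination and 189 ± 10.6 in DMSO).

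The genes with a pattern most like that of CYP1A1 were found among 48 other genes listed in all 3 tables with a mean of at least 50. The measure was the root mean square difference of the log2 changes over the 9 treated libraries, which share the 3 DMSO libraries. TRIB3, a stress-induced pseudokinase, was nearest at 0.45, with mean log2 changes of 3.89 for the combination, 2.56 for ezetimibe and 1.79 for fenofibrate. NUPR1, a stress-induced chromatin protein, followed at 0.56, EPAS1 at 0.59, AKNA, an AT-hook protein, at 0.59 and HMOX1, which breaks down haem, at 0.62. Each of the 5 lay below CYP1A1 after ezetimibe, where CYP1A1 averaged 3.25 and they averaged 2.27 to 2.79. For TIPARP, among 272 genes of the combination and ezetimibe tables over 6 treated libraries, the nearest were SMIM14 (0.12), KLF15 (0.13) and BSN (0.15). By Pearson's correlation in place of this measure, 2 of the 5 genes named for CYP1A1 and 0 of the 3 named for TIPARP were chosen again.

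**Figure D4:**
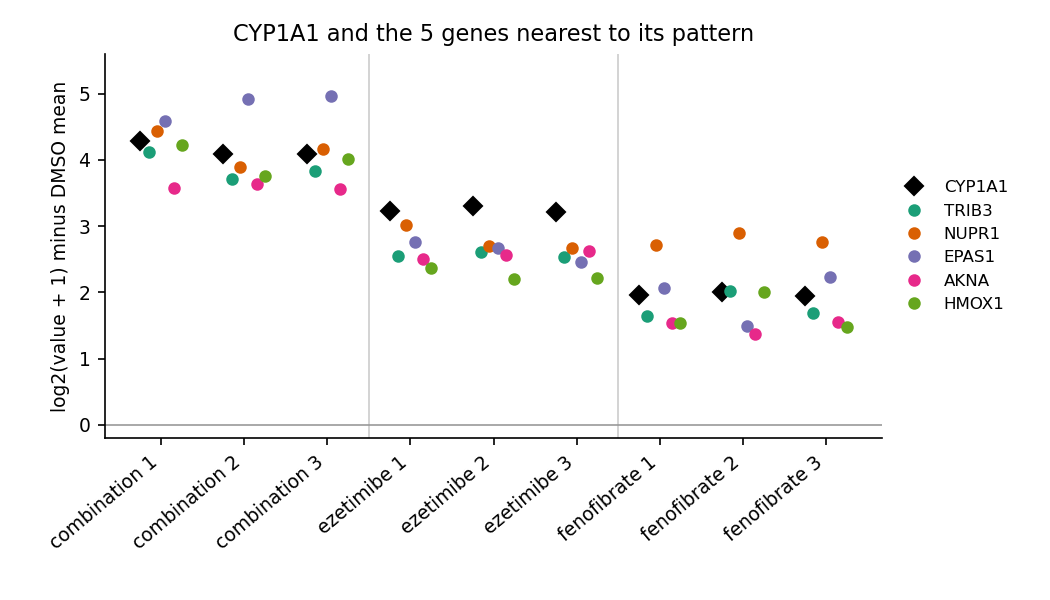
Log2 of the value plus 1 minus the DMSO mean in the 9 treated libraries for CYP1A1 (diamonds) and the 5 genes nearest to it (circles). CYP1A1 lies above the other 5 in the ezetimibe libraries, below EPAS1 in all combination libraries and below NUPR1 in all fenofibrate libraries. It is also below NUPR1 in combination libraries 1 and 3 and below EPAS1 in fenofibrate libraries 1 and 3. In fenofibrate library 2 it is slightly below TRIB3.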

How the data were processed

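RNA-seq libraries were grouped by the labels, which number 3 replicates per group and do not say that these were separate cultures, so p-values may measure technical spread alone. Fastp, HISAT2 2.0.5, featureCounts 1.5.0-p3 and hg38 are named in the submitters' processing notes, and the sources used here name no tool for the authors' comparison. Per the file headers, each deposited table holds the signal of 6 libraries, group means, a log2 fold change, a p-value and an adjusted p-value for each gene. The signal deposited by the authors was read counts divided by a factor per library (0.896 to 1.12), and 100% of values came out whole within 0.001. The numbers of genes behind the adjusted p-values were inferred from p-value ranks, which came out whole for 58.8% (fenofibrate), 89.0% (ezetimibe) and 89.7% (combination) of the p-values used. Positions and lengths of the 5 genes equalled those of GENCODE release 29.

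Limma 3.58.1 (with trend, R 4.3.3) was fitted to log2(value + 1) over all genes of a table, or all genes shared by tables, with Benjamini-Hochberg adjustment and a threshold of 0.05, 2-sided. The added 1 draws changes of low genes towards 0. An exact permutation test of 3 against 3 libraries cannot go below p = 0.1 and was not used. EdgeR 4.0.16 and DESeq2 1.42.0 were run on recovered reads of the combination table. The tests were checked on simulated data. The members, lists and tests were chosen with earlier results of these data known. Named genes were the members, up to 4 listed genes per list and the 5 or 3 nearest genes in pattern, and genes named as not listed were chosen afterwards. SE and 95% intervals are those of limma. Same-numbered replicates did not deviate together (1 of 3 pairs above r = 0.1 in the combination table and 0 of 3 in each other table). The numbers were therefore not taken as pairs. Some libraries with different numbers did deviate together, at r = 0.307 for combination 1 with DMSO 2 and 0.338 for combination 2 with DMSO 3. Combination 2 with DMSO 2 had r = -0.327. The source of this shared deviation was not tested.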

Additional observations from a re-analysis of the deposited data

Results flagged for a closer look

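On the log2 scale the effect of ezetimibe on CYP1A1 was smaller with fenofibrate than without it. In the presence of fenofibrate (the combination against fenofibrate) the log2 change was 2.18 ± 0.09 (SE), and without it (ezetimibe against DMSO) it was 3.25 ± 0.09. The difference of -1.07 ± 0.10 was tested as an interaction term by limma (adjusted p = 3.44e-06). This ran over the 49 genes of all 3 tables, picked on these same libraries, of which 55.1% were called lower. All 3 combination libraries of CYP1A1 (2511 to 2880 normalised reads) lay below 5559, the level given by multiplying the single-drug folds. The direction depended on the scale. On the linear scale, chosen after the values were seen, the combination mean was 798 ± 123 (SE) above DMSO plus the sum of the single-drug changes.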

How the results depend on the processing

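The 13 log2 changes of members kept their direction and their side of the threshold in all 185 planned settings that gave a value: other pseudocounts (0.5 and 5), filters on the mean (10 and 50), limma without trend, the replicate block, each replicate left out, values without rescaling, and edgeR and DESeq2. The counts of members called stayed within 1.5 times in all 105 settings. The changes against DMSO belong to genes already picked by a test on these same libraries. That these changes stayed past the threshold is therefore not independent evidence. The changes between treatments and the interaction were likewise tested only on genes picked on these libraries. With the replicate block as a term the CYP1A1 interaction was -1.07 (adjusted p = 3.9e-05), and the block ended no call of a member. Leaving out a replicate moved that interaction between -1.13 and -1.03, CYP1B1 with the combination between -1.59 and -1.01, and CYP1A2 with ezetimibe between 1.04 and 1.30. On the linear scale, an alternative chosen after the values were seen, the sign of the CYP1A1 interaction reversed, at 798 ± 123 (SE) normalised reads above the sum of the single-drug changes. The longer motif TNGCGTG left 1 of the 3 members whose windows held the core. The count tests were run on the combination table only, where edgeR called 2058 genes higher and 1450 lower, as limma did. These are all 3508 genes of that table. They were picked on these same libraries, so the equal calls are not independent evidence. EdgeR gave CYP1B1 a log2 change of -1.28 (DESeq2 -1.29). The count tests were not run for the ezetimibe and fenofibrate tables or across tables. Columns there did not meet the criterion set for recovered reads in low values, although 100% of values came out whole within 0.001. Depth limits CYP1B1 most, since counting error alone is 18.1% per combination library. The listing threshold hides any smaller change of the members that are not listed.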
